A study of Rattus norvegicus with 16 samples.

Results

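Heat shock proteins of the HSP90 and HSP70 families were examined in RNA of the rat spinal dorsal horn, where sensory nerve fibres that carry pain end. The members were chosen by symbol from 7 named genes, and 5 of them had a row among the 8671 genes of a table of RNA immunoprecipitation (RIP) targets: Hsp90ab1 (ENSRNOG00000019834), Hsp90b1 (ENSRNOG00000026963), Hspa5 (ENSRNOG00000018294), Hspa4 (ENSRNOG00000016596) and Hspa9 (ENSRNOG00000019525). Hsp90aa1 and Hspa8 had no row under these symbols and were not analysed here. A row named LOC103692716 is described as HSP 90-alpha, and whether it is the Hsp90aa1 locus was not settled. Rats with cancer-induced bone pain (called bone cancer pain here) were set against normal rats, both labelled WT and both with 3 biological replicates, each an ac4C immunoprecipitate (IP) with its input. A further 2 RIP pairs of IP and input came from bone cancer pain alone. The labels give no strain, age, sex or tumour, nor whether a replicate is 1 animal or a pool. P-values between groups thus measure the spread between these samples, while a peak's p-value comes from 1 pair of IP and input. The bone cancer pain peak lists are marked CFA by the authors, and the grouping here follows the labels. What the RIP antibody bound is not stated, although the labels repeat the ac4C protocol for these samples.

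HSP90 and HSP70 proteins are chaperones that use ATP to fold, refold and mature other proteins. Hsp90ab1 is the cytosolic HSP90 beta, made at high levels without stress, and Hsp90b1 (GRP94) is its counterpart in the endoplasmic reticulum. Hspa5 (BiP, GRP78) is the HSP70 of the endoplasmic reticulum and Hspa9 (mortalin) that of mitochondria, while Hspa4 belongs to the HSP110 branch, whose members exchange nucleotides for HSP70. The acetylated base ac4C (N4-acetylcytidine) is placed on RNA by Nat10. An ac4C peak is a stretch of a transcript where reads of the IP exceed those of the input, and its fold enrichment is the authors' ratio of IP over input.

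The endoplasmic reticulum (ER) members differ from the others in a promoter element of the unfolded protein response, and its sequence in both is shown for that reason. The ER stress response element was searched as CCAAT, any 9 bases and CCACG on both strands of the RefSeq promoters (250 bases before to 50 after each gene's start, build GRCr8). It was found in 22 of 33469 promoters, or 0.0657%, and among the 5 genes it was found in the ER chaperones Hsp90b1 (2 matches) and Hspa5 (1 match). The capitals mark the matches.
Hsp90b1 (GRCr8, minus strand, chr7:23012337-23012479): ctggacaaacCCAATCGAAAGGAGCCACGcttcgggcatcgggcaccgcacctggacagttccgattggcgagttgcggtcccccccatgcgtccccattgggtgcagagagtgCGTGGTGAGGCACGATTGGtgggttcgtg
Hspa5 (GRCr8, plus strand, chr3:38452963-38453001): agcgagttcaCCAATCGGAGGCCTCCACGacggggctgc

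The second Hsp90b1 match is on the opposite strand and reads as the reverse complement. A heat shock element was searched as GAA, TTC and GAA with any 2 bases between each, on both strands. It was found in 267 of the 33469 promoters (0.798%) and in none of the 5 genes, which says only that these letters are not in this window. Sequences of the ac4C peaks were not analysed here.

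Among the ac4C peaks, Hsp90ab1 stood out by place. Its peak lay at the same segment of chromosome 9 in 5 of the 6 lists, 2 from bone cancer pain and 3 from normal rats, all at a false discovery rate (FDR) of at most 0.05. The bone cancer pain peaks spanned 17820325 to 17820564 in replicate 2 and 17820384 to 17820624 in replicate 3 (rn6, plus strand). The normal peaks spanned 17820384 to 17820564 in replicate 1, 17820355 to 17820564 in replicate 2 and 17820355 to 17820594 in replicate 3. All 5 were single blocks, and they shared 181 bp from 17820384 to 17820564 out of a joint span of 300 bp. Whether that block is coding sequence or UTR needs an rn6 annotation and was not analysed here.

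Of the RIP table's genes, 0.346% had a peak in at least 5 of the 6 lists at that FDR, as did 1.84% of the 868 genes with the highest mean input signal, among which Hsp90ab1 stood. Among the 1089 genes with peaks in at least 2 lists, 30.3% had peaks of at least 2 lists that shared a place, and 0.367% (4 genes) had this in at least 5 lists. Slc35e2b and Usp34 (a deubiquitinase), named after their values were seen, were among these. The genes were chosen with earlier results of these data known, so the Hsp90ab1 recurrence is a description.

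Bone cancer pain replicate 1 was the list without an Hsp90ab1 peak at any FDR. That list held 50417 peaks, of which 49281 had the same fold of 10.6. The median FDR of those 49281 peaks was 0.0562. As deposited it named 81.1% of the RIP table's genes, but 35.6% of the 868 with the highest mean input signal. The other lists as deposited held 1173 to 2416 peaks. The part of that list's processing in the missing Hsp90ab1 peak was not tested.

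**Figure D1:**
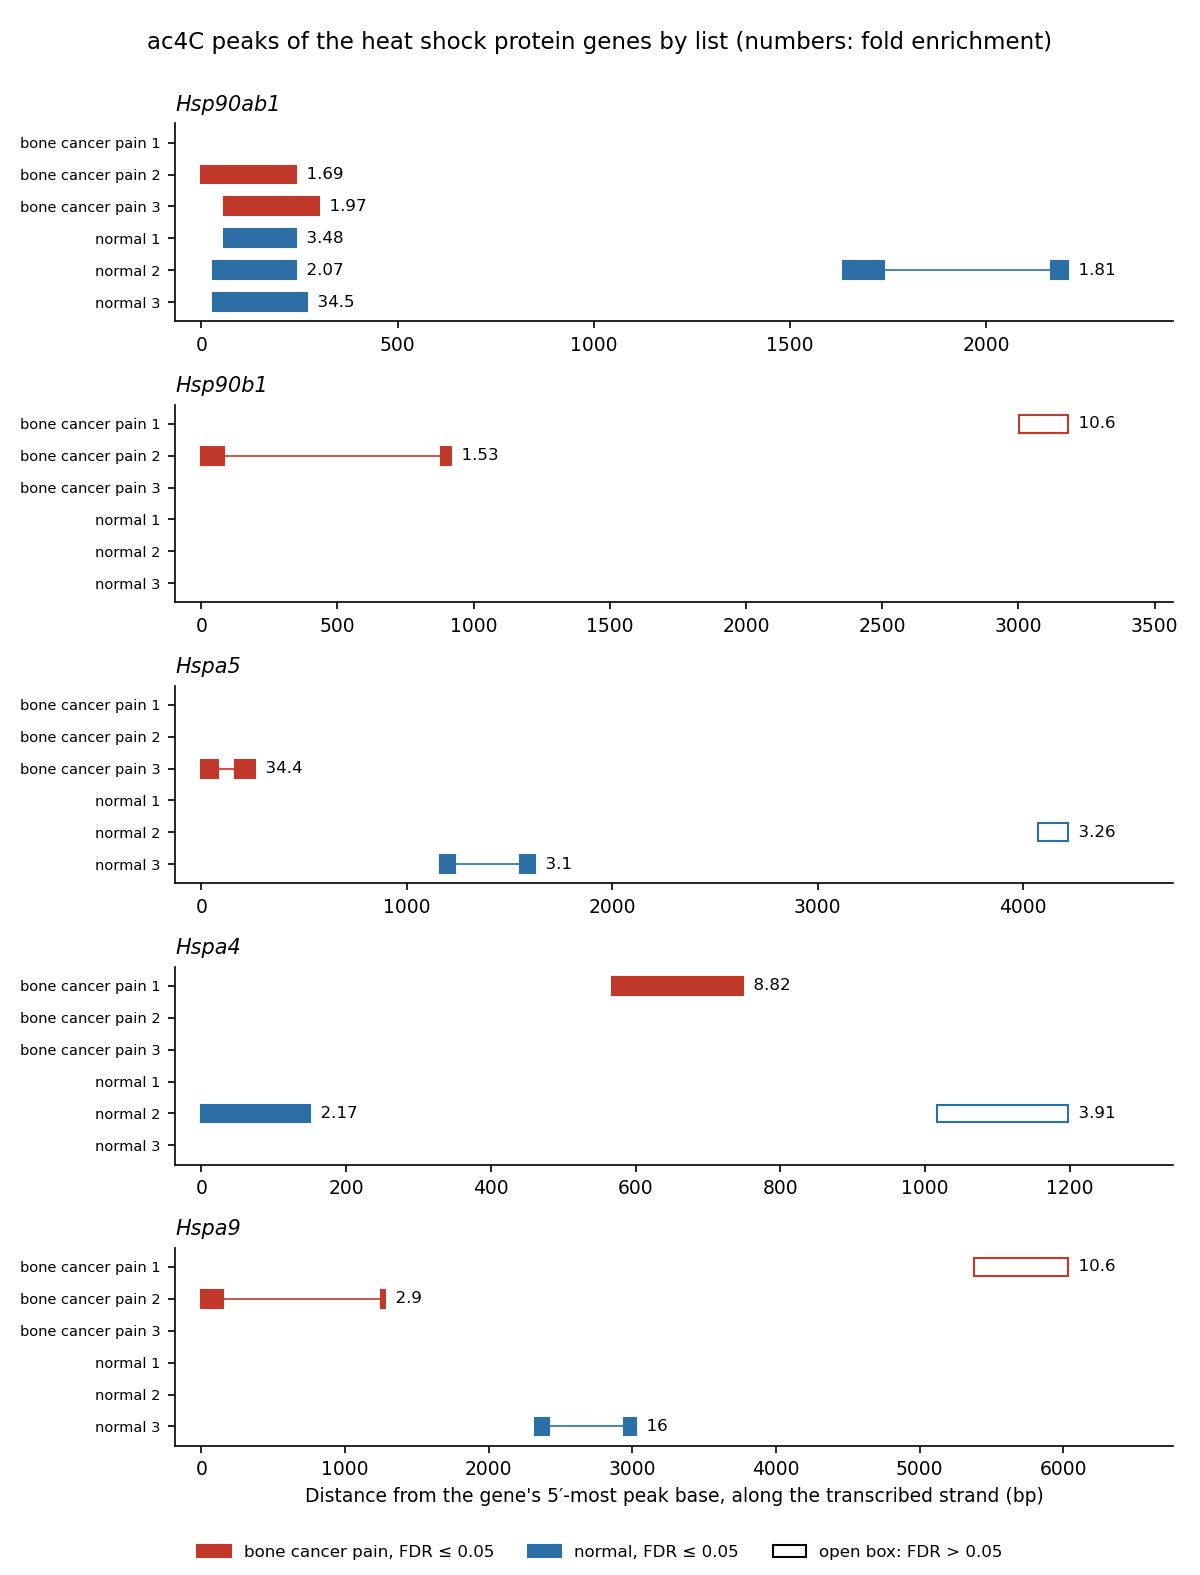
Peaks of the 5 genes in each of the 6 lists, drawn to scale by distance in bp along the transcribed strand from the gene's 5′-most peak base, with the fold enrichment beside each peak. Bone cancer pain is red and normal blue, filled boxes have an FDR of at most 0.05, open boxes a higher one, and lines join exon blocks. Peaks of different lists stack in 1 column for Hsp90ab1 and lie apart for the other 4 genes.

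Outside normal replicate 3, the Hsp90ab1 peaks combined very small p-values with low folds. In bone cancer pain, the fold was 1.69 in replicate 2 and 1.97 in replicate 3, against 3.48, 2.07 and 34.5 in normal replicates 1, 2 and 3. Both bone cancer pain values lay below all 3 normal values, and the normal values spread widely through replicate 3. On the log2 scale the means were 0.87 ± 0.16 in bone cancer pain (SD, n = 2) and 2.65 ± 2.16 in normal rats (SD, n = 3), a difference of -1.78. The two-sided exact permutation test gave p = 0.2, the smallest that 2 against 3 lists allow, and an adjusted p of 1 over the 82 genes with a peak in at least 2 lists of each group.

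Without normal replicate 3 the difference was -0.56, so that list sets its size. Of the 82 genes, 8.54% likewise had every bone cancer pain fold below every normal one. No gene of the 82 passed the adjusted threshold, and 0 had an unadjusted p under 0.05.

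By p-value, the Hsp90ab1 peak ranked 6 among 2416 peaks in bone cancer pain 2 and 10 among 1173 in bone cancer pain 3, against 4 among 1208, 1 among 1802 and 1 among 1418 in normal 1, 2 and 3. Its −log10 p was 337 and 526 in bone cancer pain, against 846, 791 and 1510 in normal rats. By fold, it exceeded 1.69% and 2.45% of the peaks at FDR of at most 0.05 in the bone cancer pain lists, against 14.3%, 4.47% and 67.4% in the normal lists. The 10 peaks with the smallest p in each list included the Hsp90ab1 peak in every list but bone cancer pain 1, where it was not called. These 10 peaks had a median fold of 103, 7.26 and 4.82 in the bone cancer pain lists 1, 2 and 3, against 3.45, 23.6 and 12.7 in normal 1, 2 and 3. The medians of all peaks at that FDR were 16.9, 20.9 and 28.7 in bone cancer pain, against 15.6, 16.3 and 22.3 in normal rats. The peaks of smallest p thus had a median fold below that of their list in 4 lists and above it in bone cancer pain 1 and normal 2. The read depth behind a peak is unknown.

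**Figure D2:**
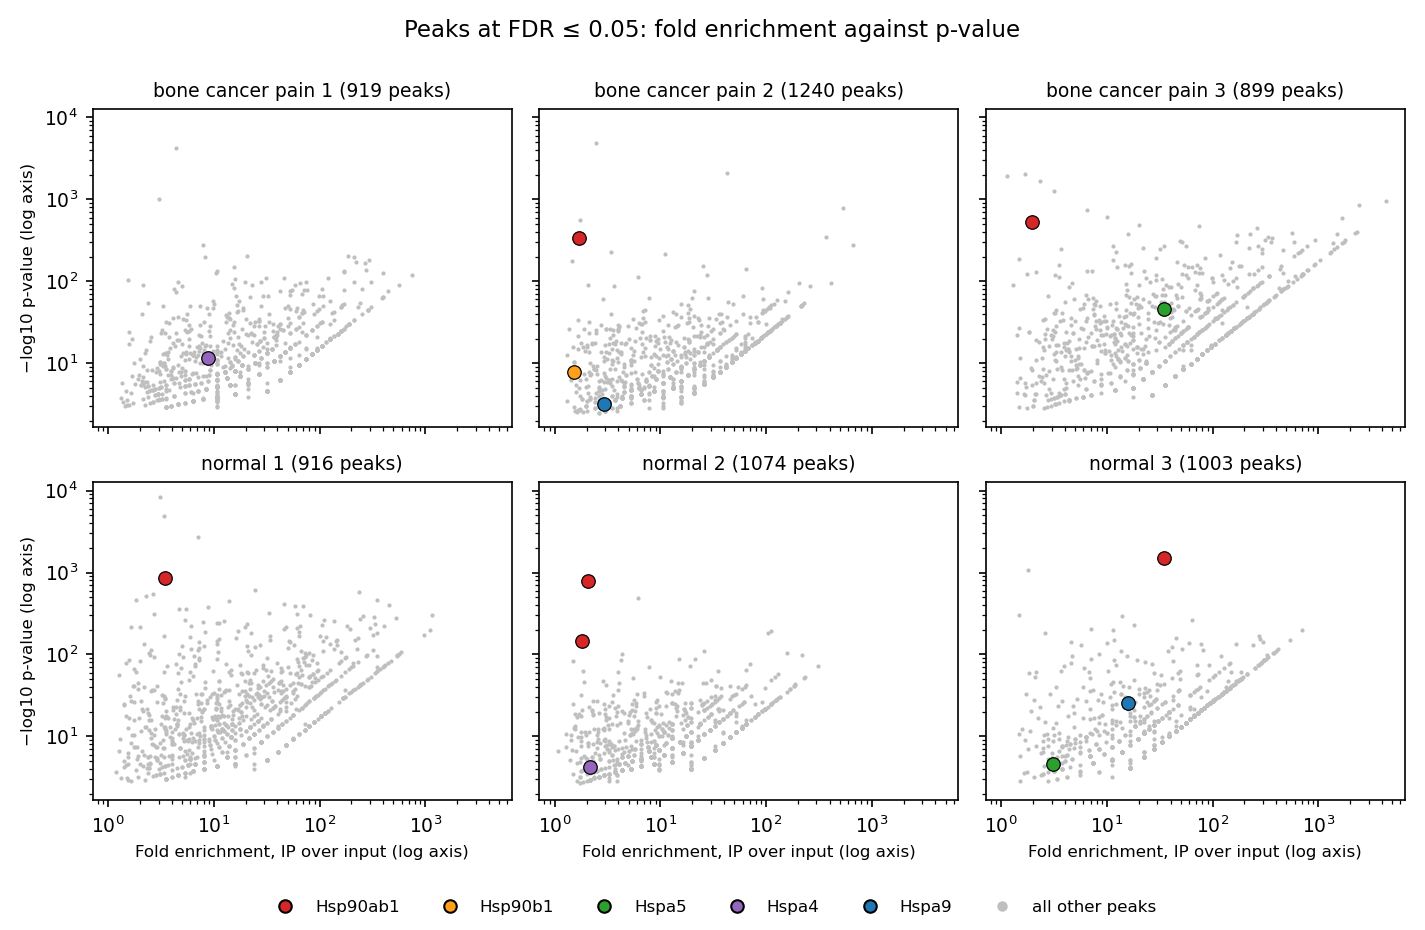
Fold enrichment (IP over input, log axis) against −log10 of the p-value (log axis) for every peak at an FDR of at most 0.05, 1 panel per list, bone cancer pain above and normal below. Hsp90ab1 (red) lies at high −log10 p and a fold of 1.69 to 3.48 in 4 lists, and at a fold of 34.5 in normal 3. The peaks of the other 4 genes lie among the grey points.

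A second Hsp90ab1 peak was called in normal replicate 2 alone. It began 1334 bp beyond the end of the 300 bp joint span and ran from 17821959 to 17822533 in blocks of 106 and 44 bp, with a fold of 1.81. Every Hsp90ab1 peak was on the plus strand. Neighbouring peaks were searched only on the minus strand and at higher coordinates. The next ones there, beyond the second Hsp90ab1 peak, belonged to Slc35b2. The closest, 866 bp past the end of the second Hsp90ab1 peak, was in bone cancer pain 1 at the recurrent fold of 10.6 and an FDR above 0.05. Of these minus-strand peaks, the nearest with an FDR of at most 0.05 was 3711 bp away, in bone cancer pain 3, with a fold of 243. Plus-strand neighbours were not analysed.

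Peaks of the other 4 genes appeared in fewer lists and never at the same place. Sharing a place was also the less common outcome among the 1089 genes with peaks in at least 2 lists, at 30.3%. At an FDR of at most 0.05 Hsp90b1 had a peak in 1 list only, so at that limit it could not share a place. Hspa5, the endoplasmic reticulum HSP70, had a peak at FDR of at most 0.05 in 1 bone cancer pain list and 1 normal list. The bone cancer pain 3 peak ran from 13838304 to 13838565 on the plus strand of chromosome 3, in 2 blocks, with a fold of 34.4. The normal 3 peak lay 898 bp away, from 13839464 to 13839928, with a fold of 3.1. Another, in normal 2 from 13842375 to 13842524, had a fold of 3.26 at an FDR of 0.0794.

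Hspa9, the mitochondrial HSP70, likewise had a peak in 1 list of each group. In bone cancer pain 2 it ran from 27735830 to 27737107 on the minus strand of chromosome 18, with a fold of 2.9, and in normal 3 from 27734080 to 27734782, with a fold of 16. Both spanned a gap between exon blocks, of 1098 bp in bone cancer pain 2 and 523 bp in normal 3. Bone cancer pain 1 added a peak from 27731072 to 27731728 at the recurrent fold of 10.6 and an FDR above 0.05.

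Hspa4, the HSP110 member, had a peak from 38602851 to 38603031 on the minus strand of chromosome 10 in bone cancer pain 1, with a fold of 8.82. In normal 2 it had peaks on either side, from 38603450 to 38603599 with a fold of 2.17 and from 38602402 to 38602582 with a fold of 3.91, the second at an FDR of 0.0794. The gaps to the bone cancer pain peak were 418 and 268 bp. These 3 peaks shared no base.

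Hsp90b1, the HSP90 of the endoplasmic reticulum, had peaks in bone cancer pain alone, 1 of them at an FDR of at most 0.05. At that limit, 36.8% of RIP table genes had a peak in at least 1 list and 12.6% in at least 2. Most genes with a peak thus had it in 1 list, and so in 1 group. The share with peaks in 1 group alone was not calculated, so this is a description. In bone cancer pain 2 the peak ran from 27231711 to 27232628 on the minus strand of chromosome 7, in blocks of 121 bp in total, with a fold of 1.53. The bone cancer pain 1 peak, from 27229445 to 27229624, had the recurrent fold of 10.6 and an FDR above 0.05.

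At an FDR of at most 0.05, all 5 genes had a peak in at least 1 list and 4 in at least 2 lists. The numbers of these genes in bone cancer pain 1, 2 and 3 were 1, 3 and 2, against 1, 2 and 3 in normal 1, 2 and 3. The shares of all RIP table genes in the same lists were 8.59%, 11.3% and 7.85% in bone cancer pain, against 8.23%, 9.58% and 9.31% in normal rats. Of all RIP table genes, 36.8% had a peak in at least 1 list and 12.6% in at least 2. Of the 1432 genes with a mean input signal at least as high as the lowest of the 5, these shares were 56.6% and 25.6%. The signal's unit is not stated, and such signals may depend on transcript length. In number of lists, Hsp90ab1 had 2 against 3 for bone cancer pain against normal, Hsp90b1 had 1 against 0, and Hspa5, Hspa4 and Hspa9 had 1 against 1 each. Fisher's exact test gave p = 1 for each, and an adjusted p of 1 over the 3805 genes tested. At best 3 lists against 0 give a Fisher's exact p of 0.1, so 0 of those genes could pass and 0 had an unadjusted p under 0.05.

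By the profile of strongest folds over the 6 lists, the genes most like Hsp90ab1 included Gprasp1, Lpar1 (a lysophosphatidic acid receptor), Kpnb1 (importin beta) and Trak2 (an adaptor of mitochondrial transport). Their Euclidean distances on the log2(fold + 1) scale were 2.15, 2.23, 2.69 and 2.71 among 3190 genes compared. Gprasp1, the nearest, had a fold of 5.7 in bone cancer pain 3, against 4.69, 2.4 and 71.2 in normal 1, 2 and 3. The list is a description over 6 lists, and these 4 had their highest fold in normal 3.

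In the RIP from bone cancer pain, the 5 transcripts were all above input. A row in that table was the condition of choice and every row had a log2 fold above 1, so these values are a description. The lowest of the 5 was Hspa4, well inside that limit, and genes outside it have no row. The authors' FDR was at most 0.05 for 99.9% of the table's rows. In the authors' deposited table, the log2 folds were 2.92 for Hspa5, 2.84 for Hspa9, 2.78 for Hsp90ab1, 2.75 for Hsp90b1 and 2.40 for Hspa4, against a median of 2.40 over all rows. They stood at percentiles 88.2, 84.1, 80.4, 78.6 and 50.1 of the table. Their FDRs in the authors' deposited table lay between 2.35e-216 and 5.65e-120.

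Hspa5 had a normalised signal of 98.6 and 96.5 in IP 1 and 2, against 12.6 and 13.2 in input 1 and 2. Hsp90b1 had 117 and 117 in the IP libraries, against 16.9 and 17.9 in the inputs. For both chaperones of the endoplasmic reticulum, IP and input libraries lay far apart and replicates close together. The cytosolic Hsp90ab1 had 407 and 407 in the IP libraries, against 56.8 and 61.6 in the inputs. Hspa9 had 61.2 and 62.3 in the IP libraries, against 7.98 and 9.23 in the inputs. Hspa4 had 51.1 and 48.6 in the IP libraries, against 8.82 and 10.01 in the inputs, the smallest ratio of the 5 in both pairs. Levels are not compared between genes here, since the header does not say whether the signal is per length.

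As log2 of IP over input per pair, the order of the 5 genes was the same in both pairs. Pairs 1 and 2 gave 2.97 and 2.87 for Hspa5, 2.94 and 2.75 for Hspa9, 2.84 and 2.72 for Hsp90ab1, 2.79 and 2.71 for Hsp90b1, and 2.54 and 2.28 for Hspa4. The range of Hspa4 lay below those of the other 4 genes. The range of Hspa9 overlapped those of Hspa5, Hsp90ab1 and Hsp90b1, so neighbours in the upper part of the order did not differ beyond their spread. With a pseudocount of 1 the mean of Hspa9 was 2.71, below 2.76 for Hsp90ab1. The range of Hspa5 lay above those of Hsp90ab1 and Hsp90b1. Pair 1 exceeded pair 2 by 0.08 to 0.26 for the 5 genes, against a median of 0.08 and an SD of 0.45 over all rows.

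**Figure D3:**
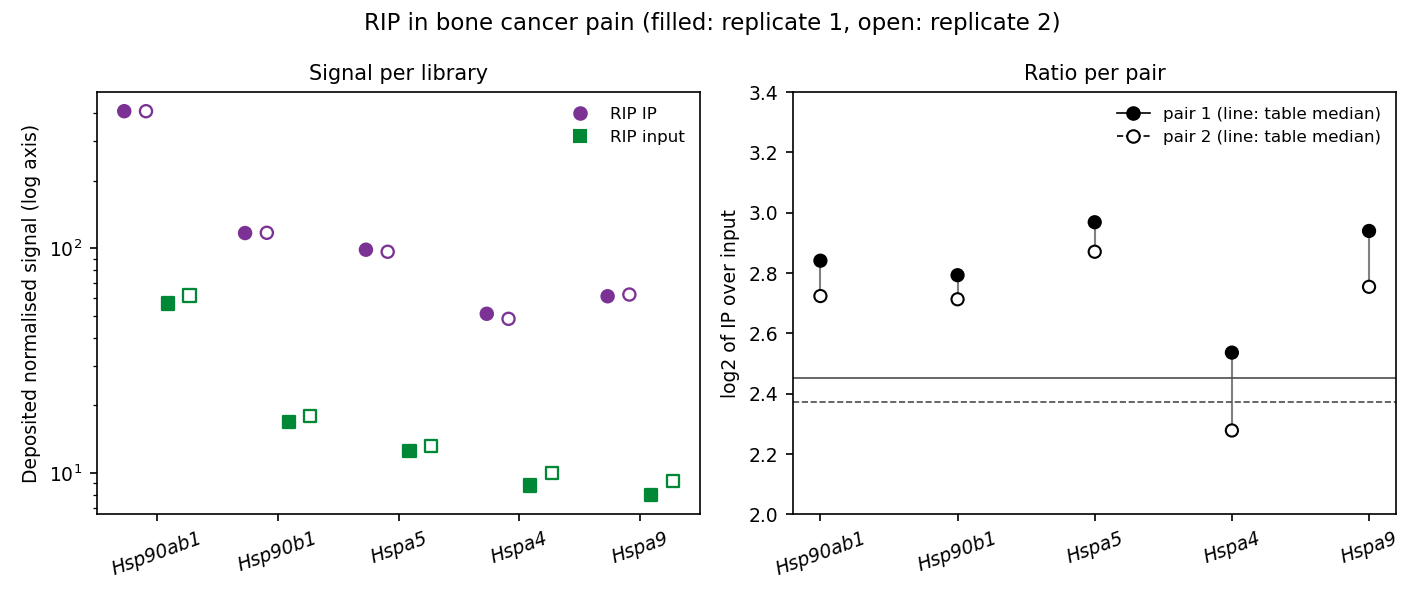
Left: deposited normalised signal (log axis) of each gene in the RIP IP libraries (purple circles) and RIP input libraries (green squares) of bone cancer pain. Right: log2 of IP over input in each pair, with the table's median for each pair as a line; Hspa4 lies near the medians, at 2.54 and 2.28, and the other 4 genes above them.

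Genes that work with HSP90 and HSP70 were followed in 7 lists of 102 genes, of which 88 had a row. In the authors' deposited table the median log2 fold over the 88 was 2.54, and 52 of them lay above the table's median of 2.40. The chaperonins had the highest list median. All 10 of them, rings that enclose a folding protein and their cofactors, lay above the table's median, from Hspe1 at 2.55 to Cct3 at 3.17, with a list median of 2.89 in the authors' deposited table. Folding factors of the endoplasmic reticulum followed with a median of 2.77 over 11 genes, from the oxidase Ero1a at 1.56 to the disulfide isomerase Pdia4 at 3.04.

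Co-chaperones of HSP90 had a median of 2.63 over 15 genes in the authors' deposited table, from Ptges3 (p23) at 1.76 to Tomm34 at 3.31. Co-chaperones and exchange factors of HSP70 had 2.47 over 31 genes, from the mitochondrial import factor Dnajc19 at 1.34 to Dnajb1, an HSP40, at 2.91. The other HSP90 and HSP70 genes had 2.41 over 8 genes, from Hspa14 at 2.15 to the mitochondrial HSP90 Trap1 at 3.01. The list of small heat shock proteins had the lowest median, 1.84 over 5 genes, yet ranged from Hspb11 at 1.04 to Cryab (alpha B crystallin) at 3.35. Whether Hspb11 belongs to that family beyond its symbol was not examined. Regulators of the heat shock and unfolded protein responses had 1.99 over 8 genes, from Hsf1 (heat shock factor) at 1.68 to Atf6 at 2.66 in the authors' deposited table. Among rows with an input signal of at least the table's median, the last list kept 3 genes and its median was 2.40.

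The ER stress response element was shared with part of this network. Of the 22 genes with a match, 13 had a RIP row, and 6 of them besides Hspa5 and Hsp90b1 stood in the chaperone lists. These 6 were Calr and Canx (lectin chaperones), Creld2, Ero1b (an ER oxidase), Dnajc3 and the factor Xbp1. The 11 other than Hspa5 and Hsp90b1 had a median log2 fold of 2.44 in the authors' deposited table, close to the table's median. These genes were named after the search was run.

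**Figure D4:**
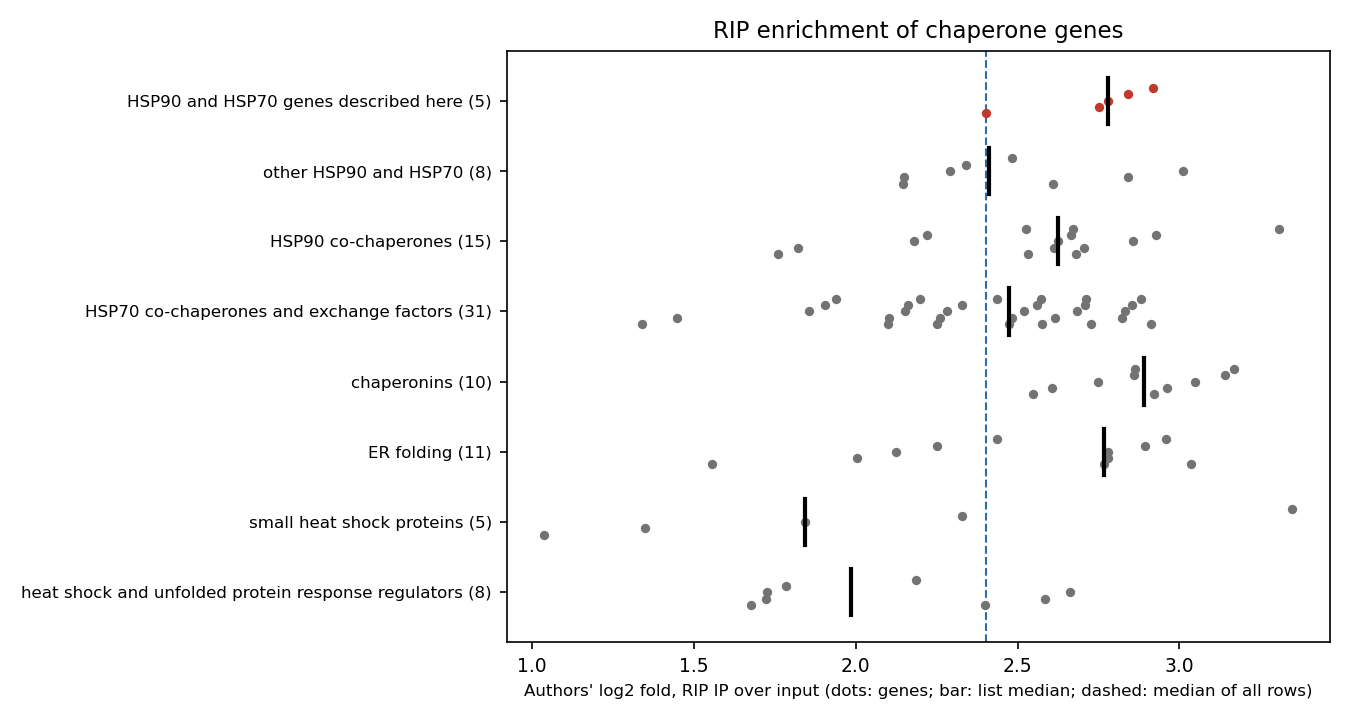
The authors' log2 fold of RIP IP over input for the 5 genes described (red) and for the 7 chaperone lists (grey), 1 dot per gene, with list medians as black bars and the median of all rows (2.40) as a dashed line. The chaperonins lie wholly above that line.

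In the ac4C lists, 39 of the 88 genes had a peak at FDR of at most 0.05 in at least 1 list and 14 in at least 2 lists, or 44.3% and 15.9%, against 36.8% and 12.6% of all rows. None had one in 5 lists. Their number per list was 5, 11 and 11 in bone cancer pain 1, 2 and 3, against 8, 12 and 10 in normal 1, 2 and 3. The nearest relatives among the 14 were Trap1, Hspa12a, Hspa4l and Hyou1. Trap1 had a fold of 36.6 in bone cancer pain 2, one of 33.9 in bone cancer pain 3 and no normal peak. Hspa12a had 14.6 in bone cancer pain 3, against 31.6 and 12 in normal 1 and 2. Hspa4l, a close relative of Hspa4, had 3.14 and 12.1 in bone cancer pain 1 and 3, against 33.5 in normal 3. Hyou1, an HSP110 of the endoplasmic reticulum, had 20.9 in bone cancer pain 2, against 26.1 in normal 2.

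Of the other 10, peaks in normal lists alone were called for Bag6, Dnaja2, Calr and Atf6. The share of all genes with peaks in lists of 1 group alone was not calculated. These calls and those of Trap1 are thus a description and not a difference between groups. Bag6, a chaperone of tail-anchored proteins, had folds of 17.6, 6.52 and 128 in normal 1, 2 and 3. Calr, calreticulin, had 46.4 and 1.43 in normal 1 and 2, and Atf6 had 5.72 and 19.6 in the same lists. Dnaja2, an HSP40, had 19.6 and 39.1 in normal 2 and 3. The lectin chaperone Canx had 1.47 in bone cancer pain 3, against 1.74 and 3.95 in normal 1 and 3.

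Pdia3 and Pdia6 (disulfide isomerases), Cdc37l1, Dnajc2 and Dnajc10 had a peak in 1 list of each group. The largest of these folds was 1390, for Dnajc2 in bone cancer pain 3, against 33.7 in normal 2. Peaks of Hspa4l, Bag6 and Canx shared a place in 2 lists each, and those of the other 11 genes in none. Of all 1089 genes with peaks in at least 2 lists, 30.3% shared a place. Fisher's exact test left each gene at an adjusted p of 1.

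Markers of the labelled tissue were present among the rows, and so were markers of Schwann cells and sensory ganglia. All 5 fixed markers each of astrocytes and oligodendrocytes had a row, 7 of 9 of dorsal horn neurons, 3 of 4 of microglia and 2 of 5 of neurons in general. Log2 folds in the authors' deposited table ran from 2.98 to 3.56 for oligodendrocyte markers, above the 5 heat shock genes at 2.40 to 2.92. They ran from 1.25 to 2.60 for dorsal horn neurons, 1.84 to 2.74 for astrocytes and 2.43 to 3.07 for microglia. Hspa4 at 2.40 lay within the ranges of dorsal horn neurons and astrocytes and below that of microglia. The other 4 heat shock genes, at 2.75 to 2.92, lay above the ranges of dorsal horn neurons and astrocytes and within that of microglia. The 2 general neuronal markers with a row had 1.55 and 2.23. The summed signal of the oligodendrocyte markers was 19054 and 18780 in the IP libraries, against 1800 and 2067 in the inputs. Of motor neuron, endothelial, and Schwann cell and sensory ganglion markers, 2 of 4, 2 of 3 and 4 of 5 had a row. Those of Schwann cells and sensory ganglia had log2 folds of 2.07 to 2.38. Their summed signal was 1565 and 1608 in the IP libraries, against 312 and 325 in the inputs. The part of cell types in the RIP values was not tested, and in bulk RNA fewer cells of a type and less RNA per cell cannot be told apart. HSP90 and HSP70 families include near-identical copies, and the counting of reads shared between copies is not stated.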

How the data were processed

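The members and gene lists were chosen with earlier results of these data known. The build is rn6, and DESeq2, featureCounts 1.6.3, HISAT2 2.1.0, cutadapt 2.5 and HOMER 4.10.4 were used, per the submitters' processing notes. Their roles and the peak caller are not stated. The authors deposited 6 peak lists, 1 per IP and input pair. Per the file headers, each peak has a fold enrichment (a ratio), a p-value and log10 values of p and FDR, read here as scores. The authors' RIP table gives a log2 fold, a p-value, an FDR and 4 normalised signal values per gene. Its log2 fold equalled log2 of mean IP over mean input signal within 0.0883. Read depth is unknown.

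Peaks at an FDR of at most 0.05 were the main data. Fisher's exact test on numbers of lists and the two-sided exact permutation test on log2 folds were run over all eligible genes, with Benjamini-Hochberg adjustment. Peaks shared a place with 1 bp of common exonic sequence on 1 strand. No test was made of RIP IP against input. Coordinates are rn6, counted from 1, unless GRCr8 is named. Named were the 5 genes, the highest and lowest of each list, list genes with peaks in at least 2 lists, and genes among the 5 nearest to Hsp90ab1. Outside this rule, genes of the promoter search, genes with a shared place in 5 lists, the neighbour Slc35b2 and 3 LOC loci were named after their values were seen. Items withheld for evaluation are not reported here. Alternatives changed the FDR limit, the overlap, the peak chosen, the pseudocount, the filter on input signal and the lists included. Statistical functions were tested on simulated data. Python 3.11.15, pandas 2.3.3, NumPy 2.4.6, SciPy 1.17.1 and matplotlib 3.10.9 were used.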

Additional observations from a re-analysis of the deposited data

How the results depend on the processing

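No test here could pass 0.05 with these numbers of lists, so the tests say nothing about stability. The log2 difference in Hsp90ab1 fold was -1.78 with all peaks, with an FDR of at most 0.01 and with the peak of smallest p-value, and -2.59 to -0.56 on leaving out 1 list at a time, with exact permutation p-values of 0.2 to 0.5. With the replicate number as a block it was -2.21 (2 pairs, exact sign-flip p = 0.5, the smallest possible). Deviations of same-numbered lists correlated at -0.00404, -0.00365 and -0.00561 over 3805 genes, so no pairing by number was seen. Most of these genes had a peak in 1 list alone, so the correlations cannot exclude a pairing. With all peaks as deposited, Hsp90b1 was called in 2 bone cancer pain lists against 0 normal ones, Hspa5 in 1 against 2 and Hspa9 in 2 against 1, and at an FDR of at most 0.01 Hspa9 had 0 against 1, so its difference between groups turned with the limit. Leaving out bone cancer pain 2 left Hsp90b1 without a peak and so without a value. The Hsp90ab1 segment stood in 5 lists with an overlap of 50% of the shorter peak. Keeping rows with at least the median input signal moved the list medians of HSP90 co-chaperones to 2.57, of small heat shock proteins to 2.08 and of response regulators to 2.40, by construction with fewer genes. A pseudocount of 1 lowered the log2 folds of all 5 genes, to 2.76 for Hsp90ab1, 2.68 for Hsp90b1, 2.83 for Hspa5, 2.29 for Hspa4 and 2.71 for Hspa9, which put Hspa9 below Hsp90ab1.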

Other observations

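The RIP table also held 3 further loci whose descriptions name HSP90 alpha or HSP70 member 8, found by a search of the descriptions after values were seen. In the authors' deposited table their log2 folds were 3.65 for LOC688655 (a pseudogene similar to heat shock protein 8), 3.11 for LOC103692716 (heat shock protein HSP 90-alpha, protein-coding) and 3.08 for LOC680121 (similar to heat shock protein 8, protein-coding). They stood at percentiles 99.6, 94.8 and 94.1, above the 5 genes described. The inputs of LOC688655 and LOC103692716 were only 1.09 to 1.72, and a pseudocount of 1 was not applied to the 3 loci. Whether they would stay above the 5 genes with it was not tested. The counting of reads that match near-identical genes is not stated, so these values are uncertain. LOC103692716 carries the description of HSP90 alpha, and whether it is the Hsp90aa1 locus was not settled. LOC688655 had a signal of 18.2 and 19.9 in the IP libraries, against 1.29 and 1.72 in the inputs. LOC103692716 had 10.6 and 12.03 in the IP libraries, against 1.09 and 1.52 in the inputs. LOC680121 had 35.1 and 37.2 in the IP libraries, against 4.26 and 4.30 in the inputs.

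The HSP90 alpha locus LOC103692716 had ac4C peaks on the minus strand of chromosome 6 in 4 lists at an FDR of at most 0.05. One place recurred from 135109824 to 135110003, with a fold of 8.36 in bone cancer pain 3 against 6.28 in normal 3, and a shorter peak in normal 2 had a fold of 1.51 at an FDR of 0.209. A second place began at 135110782, with a fold of 10.6 in bone cancer pain 1 against 6.01 in normal 1. That 10.6 is the recurrent fold of bone cancer pain 1, here at an FDR of 0.0380, so the 2 folds are not compared. LOC688655 had 1 peak at that FDR, in normal 3 with a fold of 16.7, and LOC680121 had 0.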
